A study of Mus musculus with 6 samples.

Results

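The 10 genes described here are markers of tubular injury and of failed or incomplete tubular repair: Havcr1, Lcn2, Sox9, Vcam1, Krt8, Krt18, Krt20, Clu, Cdkn1a and Vim. They were taken by gene symbol from the 46603 genes of the deposited count table, and all 10 were found. RNA-Seq was performed on CD11B+ cells from whole kidneys of male mice aged 10 to 12 weeks, 3 days after bilateral ischemia-reperfusion injury (IRI-AKI) with 28 minutes of pedicle clamping. In the PTEC DN RAR genotype, which combines Rosa26-LSL-RARaT403X with PEPCK CRE+, proximal tubular epithelial cells (PTECs) express a dominant negative retinoic acid receptor once PEPCK-Cre has removed a stop cassette. Cre- controls carried the same Rosa26 allele without Cre, and both genotypes underwent the injury. There were 3 mice of each genotype and 1 polyA library per mouse, with no uninjured library among the 6.

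After ischemia, surviving tubular cells lose differentiated functions and switch on a shared injury program before they divide and redifferentiate. Havcr1 encodes KIM-1, a phosphatidylserine receptor made by injured proximal tubule, and Lcn2 encodes NGAL, an iron-siderophore binding protein made by injured distal nephron and by neutrophils. SOX9 marks tubular cells in repair, VCAM1 marks proximal tubular cells that fail to complete it, and p21, encoded by Cdkn1a, arrests the cell cycle. The simple keratins, clusterin and vimentin are made by dedifferentiated tubular cells, although Vim, Cdkn1a, Vcam1, Clu and Lcn2 are also made by leukocytes, stroma or endothelium. CD11B is the integrin alpha M chain of monocytes, macrophages, granulocytes and NK cells and was the handle by which cells were held on magnetic beads. In such bulk samples fewer cells of a type and less RNA per cell cannot be told apart.

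Each library held 29318041 to 46517005 counts on genes, at which 3 reads correspond to 0.0645 to 0.102 CPM, the number of counts relative to library size (with TMM scaling in all values that follow). Between 5.03% and 8.77% of counts in Cre- controls, and between 10.4% and 12.1% in PTEC DN RAR mice, were mitochondrial. Itgam, the gene for CD11B, was abundant in all 6 libraries but lower in PTEC DN RAR mice, with 1737, 1959 and 1995 CPM in Cre- controls, against 1366, 1303 and 980 CPM (log2 fold change -0.64, edgeR adjusted p = 0.00818). Adgre1, the gene for F4/80, ranged from 1225 to 1712 CPM. Of 20 pan-leukocyte genes 7 were lower in PTEC DN RAR mice, against 17.1% of all genes, and their part in the falls described below was not tested. Rara, whose protein is the parent of the dominant negative receptor, measured 35.3 to 45.4 CPM in Cre- controls, against 30.7 to 37.6 CPM in PTEC DN RAR mice, and the transgene has no line of its own. Tubular markers were also measured in every library, and most of their lists were higher in PTEC DN RAR mice. The exception was the collecting duct principal cell list, of which 1 of 6 genes was higher, against 23.6% of all genes, and whose mean log2 CPM overlapped between genotypes, at 5.10, 3.66 and 4.33 in Cre- controls, against 5.10, 4.55 and 5.74 in PTEC DN RAR mice. The summed level of 16 proximal tubule markers ranged from 1072 to 1259 CPM in Cre- controls, against 2576 to 3790 CPM in PTEC DN RAR mice, and all 16 were higher, against the same 23.6%. The part of this difference in the results below was not tested unless a value is given beside them.

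Promoter windows of the RefSeq annotation (GRCm38.p6, 250 bases before the start) were matched for 7 of the 10 genes, and those of Sox9, Vcam1 and Clu were not analysed here. The parts of the windows that lie outside annotated exons are shown for Cdkn1a, which had the smallest adjusted p of the 10 genes, and for the 3 keratins, which share a retinoid receptor half-site. Capitals in the first sequence mark a pair of CATG cores spaced by 6 bases, the core spacing of a p53 response element. In the others they mark AGGTCA, the half-site bound by retinoid and other nuclear receptors. Sequences read 5′ to 3′ on the strand of the gene.
Cdkn1a, chr17:29090729-29090975, plus strand, before the more upstream of its 2 starts: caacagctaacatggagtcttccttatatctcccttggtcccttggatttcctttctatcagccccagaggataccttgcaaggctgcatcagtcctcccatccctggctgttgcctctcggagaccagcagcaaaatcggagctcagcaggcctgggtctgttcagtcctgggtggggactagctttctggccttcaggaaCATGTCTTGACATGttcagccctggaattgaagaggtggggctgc
Krt8, chr15:102004483-102004592, minus strand: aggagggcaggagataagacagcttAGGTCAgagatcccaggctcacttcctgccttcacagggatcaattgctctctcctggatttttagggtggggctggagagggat
Krt18, chr15:102027966-102028179, plus strand: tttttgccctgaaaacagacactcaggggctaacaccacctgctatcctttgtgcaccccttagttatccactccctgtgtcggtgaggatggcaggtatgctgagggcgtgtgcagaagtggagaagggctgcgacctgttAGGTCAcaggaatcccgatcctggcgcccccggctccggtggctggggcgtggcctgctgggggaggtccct
Krt20, chr11:99438154-99438403, minus strand: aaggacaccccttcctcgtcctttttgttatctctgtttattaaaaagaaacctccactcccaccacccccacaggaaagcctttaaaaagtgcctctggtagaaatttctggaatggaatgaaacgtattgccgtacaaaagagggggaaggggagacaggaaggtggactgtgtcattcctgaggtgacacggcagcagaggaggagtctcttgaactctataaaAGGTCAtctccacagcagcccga

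On both strands, AGGTCA was found in 14% of 32851 promoter windows of 250 bases, and among the 7 matched genes it was found in Krt8, Krt18 and Krt20. It lay from -225 to -220 in Krt8, from -108 to -103 in Krt18 and from -23 to -18 in Krt20, where it follows the TATAAA motif without a gap. The pair of CATG cores spaced by 6 bases, which reads the same on both strands, was found in 0.49% of windows and among these genes in Cdkn1a alone, from -48 to -35. A direct repeat of AGGTCA spaced by 5 bases, as classically bound by retinoic acid receptors, was found in 0.00913% of windows and in none of these genes. These matches describe the letters of the windows and are not evidence of binding.

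The comparison of PTEC DN RAR mice with Cre- controls asked which injury transcripts differ in the CD11B+ fraction when retinoic acid receptors are blocked in PTECs. Cdkn1a, Lcn2 and Vim were lower in PTEC DN RAR mice, by 2.12-fold, 2.08-fold and 1.56-fold on mean CPM, and Vcam1 was higher by 1.88-fold. The other 6 genes, Havcr1, Sox9, Krt8, Krt18, Krt20 and Clu, did not pass the test. Genes were tested with edgeR (quasi-likelihood F test, p values adjusted after Benjamini-Hochberg, threshold 0.05), and 3 of 10 genes were lower, against 17.1% of the 15440 genes tested, and 1 was higher, against 23.6%. Called genes in either direction were thus 4 of 10, against 40.6% of all genes, so the share called with TMM was near that of the background. The median log2 fold change was -0.35 over the 10 genes and 0.035 over all genes tested. All 10 genes passed the filter on low counts. With libraries scaled on 20 pan-leukocyte genes in place of TMM (scaling on leukocyte genes), which moved the median over all genes to 0.24, Cdkn1a, Lcn2 and Vim stayed lower, Vcam1 stayed higher and Sox9 was also called higher. These 3 lower and 2 higher genes stood against 4.78% and 31.5% of all genes in that scaling. Without regard to the test, the 3 mice of each genotype did not overlap for 4 of 10 genes, against 53.4% of all genes, with 3 lower in PTEC DN RAR mice, against 24.2%, and 1 higher, against 29.2%.

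**Figure D1:**
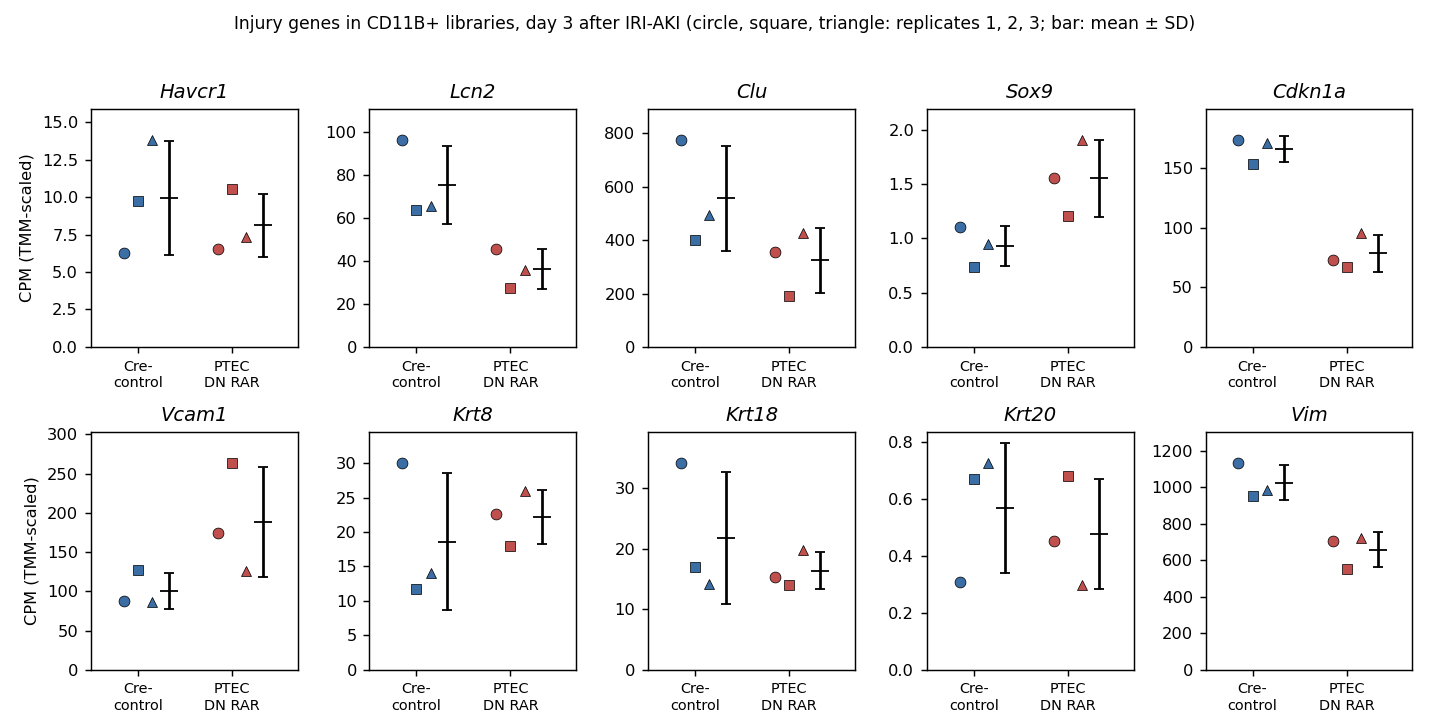
CPM of the 10 injury and failed-repair genes in each CD11B+ library, with 3 Cre- control mice in blue and 3 PTEC DN RAR mice in red. Symbols stand for replicates and bars for mean ± SD, each y axis starts at 0, and the genotypes are apart downward for Lcn2, Cdkn1a and Vim and upward for Sox9.

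**Figure D2:**
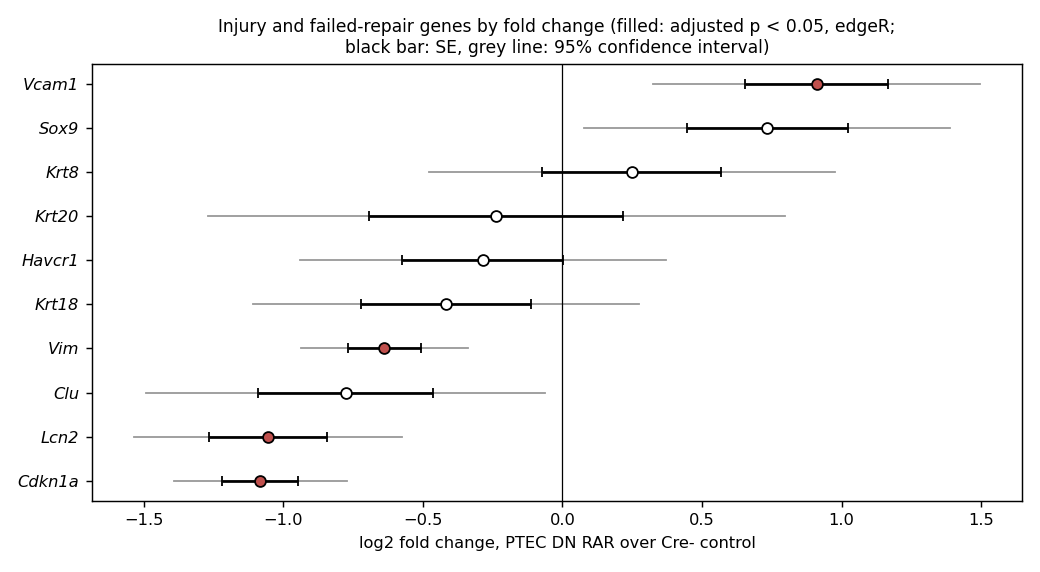
Log2 fold change of each of the 10 genes, PTEC DN RAR over Cre- control, with its SE in black and 95% confidence interval in grey, both unadjusted for multiple testing. Filled points have an adjusted p under 0.05 and run from -1.08 for Cdkn1a to 0.91 for Vcam1.

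Of Havcr1, Lcn2 and Clu, whose protein products are measured in urine as injury markers, Lcn2 passed the test. Havcr1 (ENSMUSG00000040405, chromosome 11 of GRCm38 from 46735080 to 46779578) measured 6.25, 9.73 and 13.8 CPM in Cre- controls, against 6.52, 10.5 and 7.35 CPM in PTEC DN RAR mice. The genotypes overlapped, with both the lowest and the highest library being Cre- controls. The log2 fold change was -0.29 (SE 0.29, edgeR adjusted p = 0.457), with a 95% confidence interval from -0.94 to 0.37. Of the other TIM family genes, Havcr2, Timd2 and Timd4, 0 of 3 passed in edgeR after adjustment, against 40.6% of all genes, and 3 had an unadjusted p under 0.05, against 50.2%. In DESeq2 0 of 3 passed after adjustment and 1 had an unadjusted p under 0.05, against 50.6% of all genes. With scaling on leukocyte genes Havcr2 was higher, against 31.5% of all genes. Timd2 shared 77 of the 2306 stretches of 50 bases in Havcr1 transcripts (3.34%), and reads that align to both genes are not in the gene counts.

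Lcn2 (ENSMUSG00000026822, chromosome 2 from 32384633 to 32388252) measured 96.4, 63.9 and 65.8 CPM in Cre- controls, against 45.7, 27.4 and 35.7 CPM in PTEC DN RAR mice. All 3 PTEC DN RAR mice lay below the 3 Cre- controls, with mean levels of 75.4 ± 18.3 CPM (SD, n = 3) and 36.3 ± 9.17 CPM (SD, n = 3). In log2 terms the difference was -1.06 (SE 0.21, edgeR adjusted p = 0.00517). Neutrophils also make Lcn2, and the summed level of 10 neutrophil markers was 471 to 849 CPM in Cre- controls, against 299 to 426 CPM in PTEC DN RAR mice, with 5 of 10 lower, against 17.1% of all genes. Their part in the fall of Lcn2 was not tested.

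Clu (ENSMUSG00000022037, chromosome 14 from 65968483 to 65981547), the gene for the secreted chaperone clusterin, measured 775, 399 and 493 CPM in Cre- controls, against 357, 190 and 426 CPM in PTEC DN RAR mice. The genotypes overlapped in 1 pair of libraries, the second Cre- control at 399 CPM and the third PTEC DN RAR mouse at 426 CPM. The log2 fold change was -0.78 (SE 0.31, edgeR adjusted p = 0.0778), which did not pass. It passed without either of these 2 libraries, at -1.01 (edgeR adjusted p = 0.0437) without the Cre- control and at -1.07 (edgeR adjusted p = 0.0395) without the PTEC DN RAR mouse. It was smaller without the first Cre- control, at -0.46 (edgeR adjusted p = 0.244), or without the second PTEC DN RAR mouse, at -0.51 (edgeR adjusted p = 0.168).

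Sox9 and Cdkn1a, a transcription factor of tubular repair and a brake on the cell cycle, lay on opposite sides of 0. Cdkn1a (ENSMUSG00000023067, chromosome 17 from 29090976 to 29100727) measured 174, 154 and 171 CPM in Cre- controls, against 72.5, 66.9 and 95.7 CPM in PTEC DN RAR mice. No PTEC DN RAR library reached the lowest Cre- control, and the controls varied by only 6.49% (coefficient of variation), the least of the 10 genes. On the log2 scale the change was -1.08 (SE 0.14, edgeR adjusted p = 0.000728). A transcript annotated on the opposite strand, AC167363.2, overlaps Cdkn1a and shared 6.34% of its stretches of 50 bases. Since the strand setting of the counting is not given in the sources used here, reads of this shared part could not be told apart.

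Among 16 other p53 targets 4 were lower, against 17.1% of all genes, and 2 were higher, against 23.6%, with a median log2 fold change of -0.14. Their extremes were Pmaip1, the gene for the BH3-only protein NOXA, which fell by 0.48 on the log2 scale (SE 0.084, edgeR adjusted p = 0.00296), and Perp, a desmosomal p53 effector, which rose by 0.86 (SE 0.14, edgeR adjusted p = 0.00244). Mdm2, which p53 induces as its own inhibitor and which was picked after its values were seen, fell by 0.45 (edgeR adjusted p = 0.0168). With scaling on leukocyte genes the 4 lower calls were lost and 4 of the 16 were higher (31.5% of all genes in that scaling), while Cdkn1a was still lower at -0.86 (edgeR adjusted p = 0.00403). Among 6 other cyclin-dependent kinase inhibitors 2 were higher and 1 was lower, beside the same shares of all genes. Cdkn1c, the gene for p57, rose by 1.27 (SE 0.16, edgeR adjusted p = 0.000734) from 4.18 ± 0.558 CPM to 10.1 ± 1.03 CPM (SD, n = 3 each). Cdkn2a, whose products p16 and ARF mark senescence, rose by 1.10 (edgeR adjusted p = 0.0402) and lay at 0.403 CPM and 0.863 CPM on average, a call lost in DESeq2 (1.06, adjusted p = 0.0659). Cdkn2d, the gene for p19INK4d, fell by 0.41 (SE 0.14, edgeR adjusted p = 0.0487), a call lost with scaling on leukocyte genes.

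Sox9 (ENSMUSG00000000567, chromosome 11 from 112782224 to 112787760) was low, with 22 to 90 reads per library. It measured 1.10, 0.738 and 0.950 CPM in Cre- controls, against 1.55, 1.20 and 1.91 CPM in PTEC DN RAR mice. The genotypes did not overlap, with the PTEC DN RAR mice higher. The log2 fold change of 0.73 (SE 0.29, edgeR adjusted p = 0.0717) did not pass after adjustment, but did with scaling on leukocyte genes, at 0.95 (edgeR adjusted p = 0.0439). Of 11 other SOX factors, 7 passed the filter and all 7 were higher under edgeR (23.6% of all genes), DESeq2 and scaling on leukocyte genes (31.5% of all genes), with a median log2 fold change of 1.48. Sox4, counted below among the injured-tubule genes, is an eighth tested SOX factor and did not pass in any of these settings (log2 fold change 0.089, edgeR adjusted p = 0.756, with overlapping genotypes). The 7 ran from Sox12 at 0.78 (SE 0.15, edgeR adjusted p = 0.00502) to Sox13 at 1.62 (SE 0.18, edgeR adjusted p = 0.000452). Sox7, Sox17 and Sox18 are SOX factors of endothelium, and all 8 endothelial markers were higher as well (their part was not tested), with summed levels of 85.2 to 127 CPM in Cre- controls, against 254 to 310 CPM in PTEC DN RAR mice.

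Vcam1 marks failed-repair proximal tubule as well as activated endothelium and some macrophages. It was the 1 gene of the 10 called higher with TMM. Vcam1 (ENSMUSG00000027962, chromosome 3 from 116109949 to 116129688) measured 87.0, 127 and 86.3 CPM in Cre- controls, against 174, 264 and 126 CPM in PTEC DN RAR mice. The third PTEC DN RAR mouse lay level with the second Cre- control, so the genotypes overlapped at that point. The log2 fold change was 0.91 (SE 0.26, edgeR adjusted p = 0.0221). The call was lost without the first Cre- control (0.81, edgeR adjusted p = 0.0645), the third Cre- control (0.77, edgeR adjusted p = 0.0945) or the second PTEC DN RAR mouse (0.58, edgeR adjusted p = 0.0587). Beside Vcam1, the endothelial and proximal tubule markers were higher too, and their part in its rise was not tested. Reads of Vcam1 and of the overlapping antisense gene Gm43109 could not be told apart.

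Among 7 other tested adhesion molecules of the endothelium and receptors for VCAM1, 1 was higher and 3 were lower, against 23.6% and 17.1% of all genes. Sele, the gene for E-selectin, rose by 1.91 on the log2 scale (SE 0.41, edgeR adjusted p = 0.00706), and Selp, the gene for P-selectin of endothelium and platelets, fell by 1.97 (SE 0.49, edgeR adjusted p = 0.0129). Itga4, which encodes a chain of the VLA-4 receptor of VCAM1 and was picked after its values were seen, had a log2 fold change of -0.036 (edgeR adjusted p = 0.83). With scaling on leukocyte genes 1 of the 7 was higher and 1 was lower, against 31.5% and 4.78% of all genes, and in DESeq2 5 were lower, against 21.2%.

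The keratins did not pass the test, and the first Cre- control was the highest library for Krt8 and Krt18. Krt8 (ENSMUSG00000049382, chromosome 15 from 101996698 to 102004482) measured 30.1, 11.7 and 14.1 CPM in Cre- controls, against 22.6, 18.0 and 25.9 CPM in PTEC DN RAR mice. All 3 PTEC DN RAR libraries lay between the second highest and the highest Cre- control. Its log2 fold change was 0.25 (SE 0.32, edgeR adjusted p = 0.564), with a 95% confidence interval from -0.48 to 0.98. Without the first Cre- control Krt8 passed at 0.78 (edgeR adjusted p = 0.0112), and without the second it was -0.037. The processed pseudogene Krt8-ps shared 26.9% of the stretches of 50 bases in Krt8 transcripts, so the level of Krt8 is uncertain. The lincRNA gene Gm36026 overlaps Krt8 in position but was not listed by that comparison, which left out small shares.

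Krt18 (ENSMUSG00000023043, chromosome 15 from 102028180 to 102032027) encodes the partner with which keratin 8 forms filaments and is the neighbour of Krt8. It measured 34.2, 16.9 and 14.2 CPM in Cre- controls, against 15.3, 14.0 and 19.8 CPM in PTEC DN RAR mice, so the genotypes overlapped. The log2 fold change was -0.42 (SE 0.30, edgeR adjusted p = 0.301), with a 95% confidence interval from -1.11 to 0.27, and it was 0.067 without the first Cre- control. Krt20 (ENSMUSG00000035775, chromosome 11 from 99428403 to 99438150), a keratin of injured tubule, rested on 12 to 29 reads per library. It measured 0.307, 0.671 and 0.729 CPM in Cre- controls, against 0.454, 0.683 and 0.297 CPM in PTEC DN RAR mice, with a log2 fold change of -0.24 (SE 0.45, edgeR adjusted p = 0.703). No difference in Krt20 was detected, with a 95% confidence interval from -1.27 to 0.80.

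The ratio of the 2 partners did not overlap between genotypes, a comparison that 3 mice against 3 cannot bring under 0.05. Of single genes, 53.4% did not overlap either, and the share over all pairs of genes was not computed. Per kb of exon, the level of Krt8 was 0.645, 0.509 and 0.726 times that of Krt18 in Cre- controls, against 1.09, 0.944 and 0.962 times in PTEC DN RAR mice. Reads that Krt8 shares with Krt8-ps may be missing from its counts, so the absolute ratios are uncertain. All PTEC DN RAR ratios were above the Cre- control ratios, and the first Cre- control, high in both keratins, was not apart in the ratio. On the log2 scale the difference was 0.68 (two-sided exact permutation p = 0.1, below which 3 mice against 3 cannot go, and 0.4 after adjustment over the 4 pairs of genes computed). The pairs were chosen after the values were seen. For the other 3 pairs, Krt20 over Krt18, Vim over Krt18 and Lcn2 over Havcr1, the genotypes overlapped, with exact permutation p values of 0.9, 0.4 and 0.5.

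**Figure D3:**
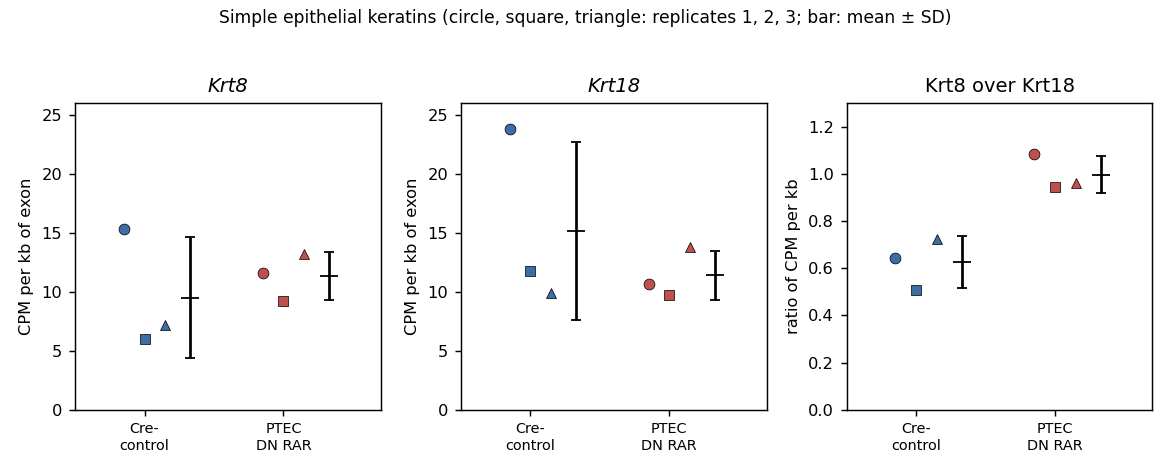
Krt8 and Krt18 in CPM per kb of exon and their ratio in each library, with Cre- controls in blue, PTEC DN RAR mice in red, symbols for replicates and bars for mean ± SD. The first Cre- control is highest for both keratins, whereas the ratio runs from 0.509 to 0.726 in Cre- controls, against 0.944 to 1.09 in PTEC DN RAR mice. Reads that Krt8 shares with Krt8-ps may be missing, so absolute ratios are uncertain.

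Vim (ENSMUSG00000026728, chromosome 2 from 13573927 to 13582826), the intermediate filament gene of mesenchymal cells, leukocytes and dedifferentiated tubule, was the most abundant of the 10 genes. It measured 1135, 955 and 986 CPM in Cre- controls, against 704, 550 and 723 CPM in PTEC DN RAR mice. The genotypes did not overlap, with the PTEC DN RAR mice lower. In log2 terms the difference was -0.64 (SE 0.13, edgeR adjusted p = 0.00582), and -0.42 (edgeR adjusted p = 0.0478) with scaling on leukocyte genes. Of 5 other tested filament genes of the type III, nestin and lamin classes, Des, the gene for desmin, was higher at 0.64 (SE 0.22, edgeR adjusted p = 0.0452) and 2 were lower, led by Lmnb1, the gene for lamin B1, at -0.82 (SE 0.15, edgeR adjusted p = 0.00319), against 23.6% and 17.1% of all genes. The call of Des was lost in DESeq2 (0.61, adjusted p = 0.0543). With scaling on leukocyte genes Lmnb1 was the 1 gene still lower and Des stayed higher, against 4.78% and 31.5% of all genes.

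Per kb of exon, the order of mean levels in Cre- controls was Vim, Clu, Cdkn1a, Lcn2, Krt18, Vcam1, Krt8, Havcr1, Krt20 and Sox9, from 216 down to 0.225 CPM per kb. Neighbours whose ranges overlapped were Vim and Clu, Krt18 and Vcam1, Vcam1 and Krt8, and Krt20 and Sox9, and the others were apart. In PTEC DN RAR mice Vcam1, at 21.2 ± 7.87 CPM per kb (SD, n = 3), took the fourth place above Lcn2 at 13.8 ± 3.50 CPM per kb (SD, n = 3), although their ranges overlapped. Sox9 moved above Krt20, again with overlap.

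Within each genotype, the mice were ordered alike for 7 of the 10 genes at one end of the range. The first Cre- control was the highest of its genotype for 7 genes, Lcn2, Sox9, Krt8, Krt18, Clu, Cdkn1a and Vim, and the lowest for Havcr1 and Krt20, while Vcam1 was highest in the second and lowest in the third. In PTEC DN RAR mice the second mouse was the lowest for the same 7 genes and the highest for Havcr1, Vcam1 and Krt20. Beside this, the mean log2 CPM of pan-tubule epithelial markers was 4.62, 3.79 and 4.03 in Cre- controls, against 5.32, 4.99 and 5.70 in PTEC DN RAR mice, so that the first Cre- control was the highest and the second PTEC DN RAR mouse the lowest of its genotype. The mean log2 CPM of proximal tubule markers was 5.37, 5.09 and 5.44 in Cre- controls, against 6.64, 7.20 and 6.89 in PTEC DN RAR mice, so the second PTEC DN RAR mouse was the highest there. The part of these markers in the split was not tested.

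The level of the 10 genes was also set against the tubular markers of the same library. Mean log2 CPM was higher in PTEC DN RAR mice by 1.61 for the proximal tubule list and by 1.19 for the pan-tubule list, without overlap between genotypes (exact permutation p = 0.1 for both, two-sided, again the lowest possible). Lrp2, the gene for the endocytic receptor megalin, rose by 1.67 (SE 0.23, edgeR adjusted p = 0.001). Slc34a1, the proximal phosphate transporter, rose by 2.07 (SE 0.20, edgeR adjusted p = 0.000275), Umod of the thick ascending limb rose by 2.10 (SE 0.26, edgeR adjusted p = 0.000631) and the epithelial adhesion gene Epcam rose by 1.44 (SE 0.30, edgeR adjusted p = 0.00598). Taken relative to the proximal tubule list within each library, all 10 genes were lower in every PTEC DN RAR mouse than in every Cre- control. This was so for 81.7% of all genes tested. The differences ran from -0.74 for Vcam1 to -2.71 for Cdkn1a on the log2 scale, with -1.85 for Havcr1 and -0.91 for Sox9. Relative to the pan-tubule list 7 of 10 were lower without overlap, against 65.8% of all genes, and Havcr1, Vcam1 and Krt20 overlapped.

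**Figure D4:**
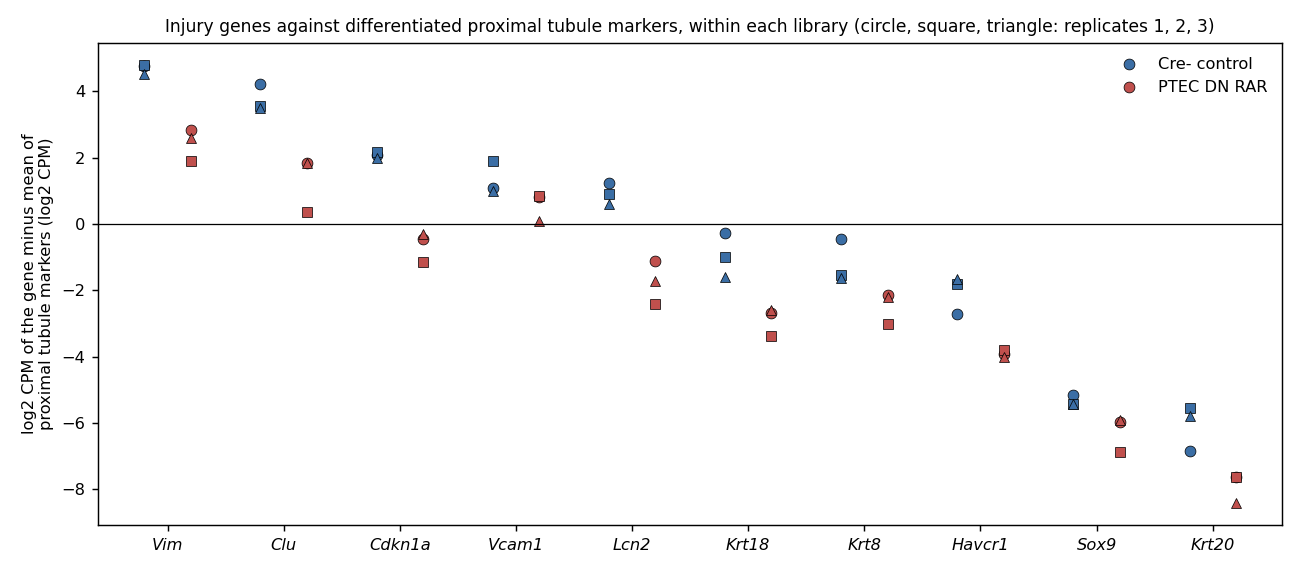
Log2 CPM of each of the 10 genes minus the mean log2 CPM of 16 proximal tubule markers in the same library, with Cre- controls in blue and PTEC DN RAR mice in red. For each gene the 3 PTEC DN RAR libraries lie below the 3 Cre- control libraries, with the smallest gap for Vcam1 and the largest for Cdkn1a.

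Other injury genes were grouped by whether cells outside the tubule also make them. Of 21 other injured-tubule genes that are mainly epithelial 6 were higher and 2 were lower, against 23.6% and 17.1% of all genes, with a median log2 fold change of 0.39. With scaling on leukocyte genes 9 were higher and 1 was lower, against 31.5% and 4.78% of all genes, and DESeq2 called 4 lower, against 21.2% of all genes. Pax2, a nephron progenitor factor re-expressed in injured tubule, rose by 1.93 (SE 0.26, edgeR adjusted p = 0.001), from 3.09 ± 1.03 CPM to 11.9 ± 2.84 CPM (SD, n = 3 each). Sprr2f, which encodes a small proline-rich envelope protein, fell by 2.88 (SE 0.43, edgeR adjusted p = 0.00155), from 1.76 ± 0.518 CPM to 0.241 ± 0.117 CPM (SD, n = 3 each). Sprr1a of the same family fell by 0.97 (edgeR adjusted p = 0.0482), a call lost with scaling on leukocyte genes (-0.75, edgeR adjusted p = 0.126).

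Of 18 other injury genes that leukocytes or stroma also make, 13 were lower and 1 was higher, with a median of -0.83, against 17.1% and 23.6% of all genes. The lowest was Timp1, an inhibitor of matrix metalloproteinases, at -1.55 (SE 0.20, edgeR adjusted p = 0.000844). The 1 called higher was Ccn1, a matricellular gene also known as Cyr61, at 0.79 (SE 0.15, edgeR adjusted p = 0.00465). With scaling on leukocyte genes 10 of 18 were still lower and 2 were higher, against 4.78% and 31.5% of all genes. Of 9 junction and desmosome genes 3 were higher, against 23.6% of all genes, from Jup at 0.82 (SE 0.11, edgeR adjusted p = 0.000911) to Pkp2 at 1.27 (SE 0.22, edgeR adjusted p = 0.00275). In DESeq2 4 were higher, against 23.0% of all genes, and 5 were with scaling on leukocyte genes, against 31.5% of all genes in that scaling. Of the 10 genes, 5 are also made by leukocytes, stroma or endothelium, and of these Cdkn1a, Lcn2 and Vim fell, Vcam1 rose and Clu did not pass. Infiltrating monocyte markers were lower as well, with 5 of 6 lower, against 17.1% of all genes, and summed levels of 2353 to 2586 CPM in Cre- controls, against 1153 to 1326 CPM in PTEC DN RAR mice, whereas 2 of 8 macrophage markers were lower. Stroma and pericyte markers moved the other way, with 5 of 7 tested genes higher, against 23.6% of all genes, and summed levels of 88.3 to 102 CPM in Cre- controls, against 114 to 205 CPM in PTEC DN RAR mice. The part of these markers in the changes of these genes was not tested.

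**Figure D5:**
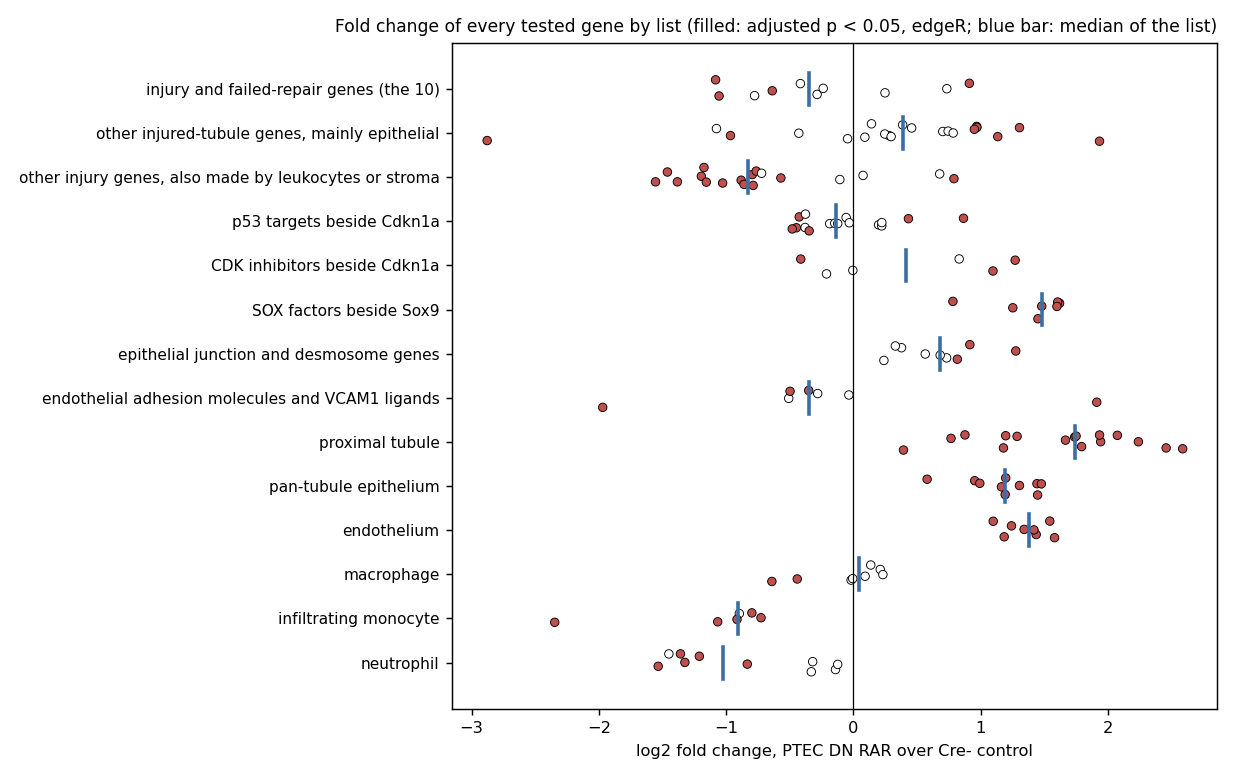
Log2 fold change of every tested gene, PTEC DN RAR over Cre- control, by list, with a filled point for an adjusted p under 0.05 and a blue bar for the median of the list. Injury genes also made by leukocytes or stroma have a median of -0.83, the mainly epithelial injury genes 0.39 and the proximal tubule markers 1.74.

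Genes closest to each of the 10 across the 6 libraries were found by the root mean square difference of centred log2 CPM over about 13020 genes with a mean of at least 1 CPM. Vim had the closest neighbours, Pvr at 0.036, G6pdx at 0.056 and Htatip2 at 0.057. Clu was followed by Sprr1a at 0.19 and Lgals3 at 0.20, both of them genes of the injury lists, and Lgals3 itself fell by 0.88 (SE 0.28, edgeR adjusted p = 0.0335), a call lost in DESeq2 (adjusted p = 0.0531) and with scaling on leukocyte genes (edgeR adjusted p = 0.117). Sox9 was followed by Plcd1 at 0.054, by Spint1, an epithelial protease inhibitor of the pan-tubule list, at 0.072 and by Pam at 0.077. Krt8 was followed by Gm5436 at 0.10, by the tight junction gene Cldn4 at 0.12 and by Plet1 at 0.15, and Vcam1 by Nid1, a basement membrane gene, at 0.092. Likeness over 6 libraries describes these samples alone.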

How the data were processed

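RNA of CD11B+ cells was sequenced from 3 PTEC DN RAR and 3 Cre- control mice, 1 library per mouse. The authors deposited raw counts per Ensembl gene, and the submitters' processing notes name STAR 2.5.0a, HTSeq 0.6.1, edgeR, limma and the build GRCm38. The annotation release and the strand setting are not given in the sources used here. Reads aligned to several places, 42.9% to 47.8% of alignments, are listed apart from the gene counts, which lowers genes with near-identical copies. The table also gives summary lines without a gene, which stayed out of library sizes. Of 46612 gene lines, 9 repeats were collapsed and 27 symbols turned into dates were restored. Coordinates and exon lengths come from GENCODE M21 (GRCm38).

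In R 4.3.3, genes kept by filterByExpr (15440) were scaled with TMM factors and compared by the quasi-likelihood F test of edgeR 4.0.16 (glmQLFit, glmQLFTest), and p values were adjusted over these genes after Benjamini and Hochberg. The SE is the size of the log2 fold change divided by the square root of F. CPM values are scaled by TMM, log2 CPM has a prior count of 2, and CPM per kb divides by the summed exon length. Scaling on leukocyte genes sets libraries equal on 20 pan-leukocyte genes. It moved the median over all genes from 0.035 to 0.24 (log2 fold change). Exact permutation tests were two-sided. Alternatives were DESeq2 1.42.0, limma-voom 3.58.1, other scalings, filters and prior counts, the replicate number as a block, and leaving out each mouse. Python 3.11 with scipy 1.17.1, pandas 2.3.3, numpy 2.4.6 and matplotlib 3.10.9 was used for tables and figures. On simulated counts of 15440 genes for this comparison, edgeR recovered 96% of genes changed by 2 and 77% of genes changed by 1 on the log2 scale, with 14 false calls among 187. DESeq2 made 47 false calls among 229 on the same counts. These counts were drawn once, with dispersions fitted by edgeR and 100 well-covered genes changed at each size. In the data 40.6% of genes were called, so the simulation does not give the error of either tool there. Libraries of a genotype differed by more than counting error. Intervals and floors cover counting error only where they rest on reads.

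The 10 genes, the lists and the tests were chosen with earlier results of these data known. Named in the text are all 10 genes, the called gene with the largest and with the smallest log2 fold change of each injury or related list, Itgam, Adgre1, Slc34a1, Lrp2, Umod, Epcam and Rara as checks, and some of the closest genes, while genes named beside these were picked after their values were seen. The rule also covers the extremes of marker lists, which are given as counts and levels only. The p53 core pair was added after the values were seen.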

Additional observations from a re-analysis of the deposited data

How the results depend on the processing

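Cdkn1a, Lcn2 and Vim were lower and past the threshold under all 13 alternatives, with log2 fold changes from -1.30 to -0.86, from -1.26 to -0.84 and from -0.75 to -0.42. Havcr1 stayed negative and did not pass under any of them (-0.54 to -0.018). Clu also passed without the filter on low counts (-0.80, adjusted p = 0.0163 by edgeR) and with the replicate block (-0.80, adjusted p = 0.0196 by edgeR). With scaling on leukocyte genes 738 of all genes (4.78%) were lower and 4856 (31.5%) higher, and 2 of the 10 genes were higher. In the 9 injury and related lists 13 genes were lower, against 25 with TMM, where 17.1% of all genes were lower. In that scaling the macrophage list differed by 0.15 and the T and NK cell list by 0.14 on the log2 scale, against -0.060 and -0.033 with TMM. Leaving out each mouse gave 0 to 1 higher calls among the 10 genes, against 15.2% to 23.2% of all genes in these fits. There were 0 without the third Cre- control (15.2% of all genes) or the second PTEC DN RAR mouse (20.1%). Without the first Cre- control the 1 higher gene was Krt8, while Vcam1 did not pass. Leaving out each mouse also gave log2 fold changes from -0.037 to 0.78 for Krt8 and from -0.69 to 0.067 for Krt18. It gave differences from -0.12 to 0.039 for the macrophage list and from -0.52 to 0.40 for the T and NK cell list, and from -0.63 to 0.56 for the log2 ratio of Krt20 over Krt18, an alternative added after seeing the data. The log2 ratio of Krt8 over Krt18 stayed between 0.54 and 0.79. DESeq2 called 3278 genes lower and 3548 higher. Replicate numbers were not treated as pairs, and the labels do not say how they were given. Deviations of equal numbers correlated at -0.015, 0.21 and 0.029 over genes, and those of unequal numbers at -0.18 to 0.15. With 3 mice per genotype these values cannot decide whether the numbers pair the mice. The replicate block gave 2606 lower and 3612 higher genes and changed the call of Clu alone among the 10 genes. The cause of these changes was not tested. Krt20 rested on 12 to 29 reads and had the largest SE of the 10 genes (0.45), and with 3 mice against 3 the exact permutation p cannot go below 0.1.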
